A study of Mus musculus with 7 samples.

Results

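Immediate early genes are switched on within minutes of a signal, from transcription factors that are already in the cell, and their mRNAs are as a rule short-lived. Many encode transcription factors themselves. Fos, Fosb and Fosl2 pair with Jun, Junb or Jund to form AP-1, Egr1 and Nr4a1 bind DNA through zinc fingers, and Btg2 and Ier2 are early response genes that encode no DNA-binding factor of these families. In the nervous system the group is known as a readout of neuronal activity, growth factors and stress. The cell bodies of optic nerve axons lie in the retina, so most RNA of the nerve comes from glia, vessels and meninges.

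The 10 genes Fos, Fosb, Fosl2, Jun, Junb, Jund, Egr1, Ier2, Nr4a1 and Btg2 were taken by symbol from the 22880 genes of the deposited table, and each was found once. They were followed in optic nerves of 7 mice at postnatal day 14 (P14), with 1 RNA-seq sample per mouse. The 4 control mice (CT) were FASN lox/lox without Cre, and the 3 conditional mutant mice (cMU) were olig2cre FASN lox/lox, so both groups carried the floxed Fasn gene, and all mice are labelled C57Bl/6. Cre was driven by the Olig2 promoter, which is active in the oligodendrocyte (OL) lineage, and the comparison asks how loss of fatty acid synthase in that lineage changes the RNA of the whole nerve. Because whole nerves were sequenced, fewer cells of a type and less RNA per cell cannot be told apart.

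None of the 9 immediate early genes with enough RNA to be tested differed between cMU and CT nerves past the threshold of an adjusted p of 0.05. Of all tested genes, 2.62% passed it. Levels of the immediate early genes were instead uneven among the cMU mice. Mutant samples 1 and 2 held the highest level of 9 of the 10 genes, whereas mutant sample 3 was the lowest mutant sample for all 10 and the lowest of all 7 samples for 7 of them. Values are FPKM, that is fragments scaled for transcript length and library size, and fold changes were computed with limma-trend on log2(FPKM + 0.5), a scale that understates changes of low genes.

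Control of the group by signalling is written in short promoter elements, which are shown here so that the genes can be placed beside the levels of their regulators below. CREB, the factor activated by cAMP and calcium signals, binds the element TGACGTCA (CRE), whose core TGACG alone is also a recognised site. For 8 of the 10 genes a promoter from RefSeq (GRCm38.p6) was used. In the 250 bases upstream of the transcription start, read on both strands, 5 of these 8 held the core (Fos, Fosb, Junb, Nr4a1 and Btg2), as did 17.8% of 32851 mouse promoters. Btg2 alone held the full CRE, which 1.55% of all promoters held and which contains the core on each strand. The AP-1 element TGACTCA was found in none of the 8 (4.46% of all promoters), nor was the CArG box, the site of serum response factor (1.47% of all promoters). TATAAA, read on the sense strand only, occurred in Fos alone (7.59% of all promoters). A match describes letters and not a bound factor. Only exact strings within these 250 bases were sought, and Egr1 and Ier2 were not searched. Elements farther upstream or with other letters would be missed, so a gene without a match may still hold a site. The 170 bases before the start of the 5 genes with a match are printed 5′ to 3′ on the sense strand of the gene, with the core, or in Btg2 the full CRE, in capitals; CGTCA is the core read on the other strand. They lie at chr12:85473720-85473889 (plus strand) for Fos, chr7:19310046-19310215 (minus) for Fosb, chr8:84978749-84978918 (minus) for Junb, chr15:101266676-101266845 (plus) for Nr4a1 and chr1:134079156-134079325 (minus) for Btg2. Nr4a1 held the core at 4 places, and those beginning at -233 and -213 from the start lie outside the printed bases.
Fos: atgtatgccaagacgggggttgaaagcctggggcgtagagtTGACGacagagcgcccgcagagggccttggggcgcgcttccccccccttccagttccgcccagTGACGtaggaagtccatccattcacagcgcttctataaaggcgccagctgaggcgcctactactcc
Fosb: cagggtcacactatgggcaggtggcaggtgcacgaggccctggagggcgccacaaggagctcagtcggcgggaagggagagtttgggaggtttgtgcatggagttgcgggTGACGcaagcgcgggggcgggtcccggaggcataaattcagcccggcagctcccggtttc
Junb: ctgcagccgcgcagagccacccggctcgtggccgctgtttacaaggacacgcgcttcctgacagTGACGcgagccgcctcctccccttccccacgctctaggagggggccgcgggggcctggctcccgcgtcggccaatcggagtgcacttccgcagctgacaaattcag
Nr4a1: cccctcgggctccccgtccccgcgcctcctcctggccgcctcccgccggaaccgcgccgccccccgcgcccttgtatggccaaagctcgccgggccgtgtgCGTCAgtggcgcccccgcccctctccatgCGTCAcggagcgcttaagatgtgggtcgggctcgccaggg
Btg2: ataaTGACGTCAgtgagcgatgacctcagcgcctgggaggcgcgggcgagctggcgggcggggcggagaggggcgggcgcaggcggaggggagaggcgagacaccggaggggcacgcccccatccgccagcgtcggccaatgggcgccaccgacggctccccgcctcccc

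The libraries held 27456733 to 43460862 reads, lowest in mutant sample 3. Fasn itself served as the check of the genotype, at 169 to 228 FPKM in CT and 49.0 to 69.3 FPKM in cMU nerves (log2 fold change -1.86, adjusted p = 0.00312, limma-trend). The nerve was recognisable by its OL markers, whose summed FPKM (Mbp, Mog, Mag, Cnp and Mobp) was 33641 to 40671 in CT and 24763 to 30865 in cMU nerves. Some libraries stood apart in genes of other tissues. The summed level of 5 skeletal muscle markers was 0.727 to 1.35 in CT samples and 1.96, 44.7 and 3.18 in mutant samples 1, 2 and 3. Blood markers (Alas2, Hbb-bs, Hba-a1, S100a8 and S100a9) summed to 8345 in control sample 2 and to 1914 to 3727 in the other samples. Haemoglobin RNA made up most of that sum, with Hbb-bs at 5915 and Hba-a1 at 2348 in control sample 2. The neutrophil genes S100a8 and S100a9 were instead lowest of all samples there, at 1.035 and 1.581. The threshold was passed by 363 of 13866 tested genes (2.62%), with 175 higher and 188 lower in cMU nerves, a split that was 141 to 281, 124 to 215 and 102 to 266 with quantile normalization, median of ratios scaling and normalized counts. At an unadjusted p under 0.05 there were 24.4% of the tested genes.

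By level the genes spanned a wide range. Averaged over the 7 samples, Jun was the most abundant at 23.8 FPKM, above 72.9% of tested genes, followed by Jund at 11.1, Fos at 8.26, Btg2 at 8.08, Nr4a1 at 7.93, Egr1 at 4.76, Ier2 at 3.26 and Fosl2 at 3.21, with Junb lowest of the tested genes. Fosb stood far below at 0.235. Jun exceeded Jund in 7 of 7 samples without overlap of their ranges, and Junb likewise exceeded Fosb. The neighbours in between overlapped. Fos was above Btg2 in 4 samples, Btg2 above Nr4a1 in 3 and Ier2 above Fosl2 in 4, so that the order within Fos, Btg2 and Nr4a1, and that of Ier2 and Fosl2, changed from mouse to mouse.

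**Figure D1:**
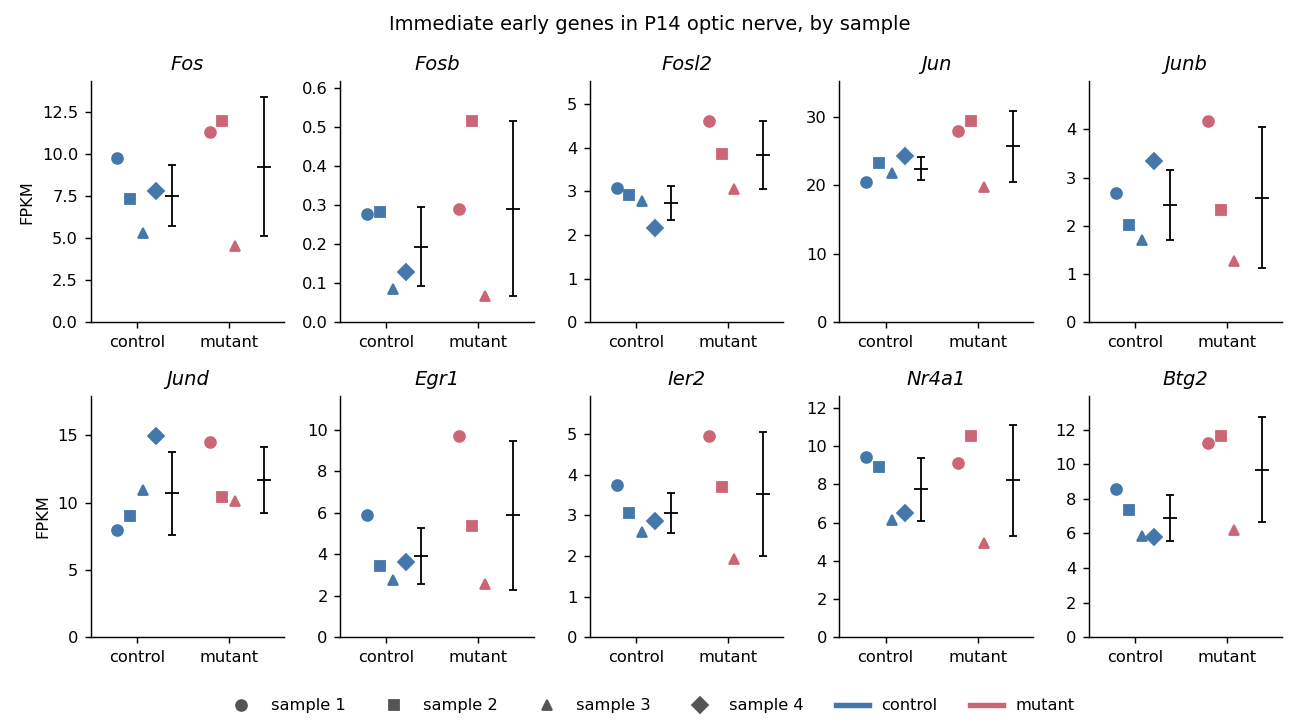
FPKM (y axis, from 0) of each immediate early gene in each CT (blue) and cMU (red) sample, with the sample number as symbol and, beside the points, the mean ± SD (n = 4 CT and n = 3 cMU mice). Mutant sample 3 (red triangle) is the lowest mutant sample in all 10 panels, and the groups overlap in each.

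Fos (ENSMUSG00000021250, chromosome 12, 85473890 to 85477273, plus strand, GRCm38) encodes the classical AP-1 subunit that cannot bind DNA without a Jun partner. The CT samples, here and below in the order of their numbers 1 to 4, held 9.73, 7.30, 5.28 and 7.79 FPKM, and the cMU samples, numbered 1 to 3, held 11.3, 11.9 and 4.51. Mutant samples 1 and 2 thus lay above all CT samples and mutant sample 3 below all of them. The means were 7.52 ± 1.83 (SD, n = 4) and 9.24 ± 4.11 (SD, n = 3), and the log2 fold change of 0.20 (95% confidence interval -0.51 to 0.91) did not pass (adjusted p = 0.738, limma-trend). These values rested on 261 to 889 reads per sample.

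Fosb (ENSMUSG00000003545, chromosome 7, 19302721 to 19310045, minus strand), a Fos relative known from long-lasting responses in neurons, was close to the limit of detection with 7 to 60 reads per sample. Its FPKM was 0.277, 0.283, 0.0859 and 0.128 in CT and 0.291, 0.515 and 0.0680 in cMU samples. It reached 0.5 in mutant sample 2 only and was therefore not tested. Its order over the samples was nevertheless that of Fos in the mutants, with mutant sample 2 highest and mutant sample 3 lowest of all.

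Fosl2 (ENSMUSG00000029135, chromosome 5, 32136472 to 32157831, plus strand), which encodes the AP-1 subunit Fra-2, had the lowest p of the group in this comparison of all 7 samples, whereas Btg2 had it with the block and without mutant sample 3. The CT samples held 3.07, 2.91, 2.79 and 2.17 FPKM and the cMU samples 4.61, 3.86 and 3.05. Only control sample 1 and mutant sample 3 were out of order, at 3.07 and 3.05. The means of 2.74 ± 0.394 (SD, n = 4) and 3.84 ± 0.781 (SD, n = 3) gave a log2 fold change of 0.42 (interval 0.07 to 0.76). The unadjusted p was 0.0236 and the adjusted p 0.145 (limma-trend), and in the alternatives the adjusted p ran from 0.0654 (DESeq2) to 0.358. Fosl2 was 1 of 9 tested genes of the group with an unadjusted p under 0.05, a share below that of all genes (24.4%).

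Jun (ENSMUSG00000052684, chromosome 4, 95049034 to 95052222, minus strand) encodes the AP-1 subunit that can also pair with itself. Its FPKM was 20.45, 23.3, 21.7 and 24.2 in CT and 27.8, 29.3 and 19.8 in cMU samples, so that again mutant samples 1 and 2 exceeded every CT sample and mutant sample 3 fell below every one. The CT samples lay within a narrow range, with a mean of 22.4 ± 1.66 (SD, n = 4) against 25.6 ± 5.14 (SD, n = 3) in cMU. The log2 fold change was 0.17 (interval -0.12 to 0.47, adjusted p = 0.442, limma-trend). Jun is overlapped on the other strand by Junos, and whether the counting used the strand is not given in the sources used here.

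Junb and Jund, the other Jun proteins, behaved differently from each other. Junb (ENSMUSG00000052837, chromosome 8, 84976909 to 84978748, minus strand), which often counteracts Jun, was at 2.67, 2.01, 1.71 and 3.35 in CT and 4.17, 2.33 and 1.27 in cMU samples, with 64 to 274 reads. Mutant sample 1 was the highest and mutant sample 3 the lowest of all 7, and the log2 fold change was -0.0066 (interval -0.71 to 0.70, adjusted p = 0.993, limma-trend). Jund (ENSMUSG00000071076, chromosome 8, 70697739 to 70700616, plus strand) is the steadily expressed member, usually little induced. Its FPKM was 7.96, 8.99, 10.9 and 14.9 in CT and 14.5, 10.4 and 10.2 in cMU samples. It was the only gene of the group whose highest sample was a control. The log2 fold change was 0.14 (interval -0.32 to 0.60, adjusted p = 0.711, limma-trend). The antisense gene Gm11175 overlaps Jund, so its value carries the same limit as that of Jun.

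Summed per family, the make-up of AP-1 varied little with genotype. Jun contributed 57.0% to 67.9% of the FPKM of the 3 Jun genes in CT samples and 59.9% to 69.7% in cMU samples. Fos contributed 64.8% to 77.2% of the FPKM of the 3 Fos genes in CT samples and 59.1% to 73.2% in cMU samples. The lowest share of Fos and the highest of Fosl2, 40.0%, were both in mutant sample 3. The Jun genes together stood 2.38- to 4.21-fold above the Fos genes in CT and 2.58- to 4.09-fold in cMU samples.

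Egr1 (ENSMUSG00000038418, chromosome 18, 34859823 to 34864984, plus strand), a zinc finger factor and a standard target of serum response factor, was the most variable gene of the group that could be tested. Its FPKM was 5.88, 3.42, 2.76 and 3.64 in CT and 9.69, 5.37 and 2.55 in cMU samples, a 3.80-fold range. Mutant sample 1 was far above the rest, and mutant sample 2 lay below control sample 1. The means were 3.93 ± 1.36 (SD, n = 4) and 5.87 ± 3.60 (SD, n = 3). The log2 fold change of 0.40 had an interval from -0.44 to 1.25 (adjusted p = 0.541, limma-trend).

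Nr4a1 (ENSMUSG00000023034, chromosome 15, 101266846 to 101274792, plus strand) encodes the orphan nuclear receptor Nur77. It was at 9.42, 8.88, 6.11 and 6.51 in CT and 9.14, 10.5 and 4.95 in cMU samples. Control sample 1 was above mutant sample 1, and mutant sample 3 was the lowest of all. Its log2 fold change was 0.04 (interval -0.51 to 0.59, adjusted p = 0.940, limma-trend) and turned negative under all 3 other scalings.

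Btg2 (ENSMUSG00000020423, chromosome 1, 134075170 to 134079120, minus strand) encodes an antiproliferative protein that recruits the CCR4-NOT deadenylase to mRNAs. CT samples held 8.54, 7.34, 5.84 and 5.79 FPKM and cMU samples 11.3, 11.6 and 6.20. Mutant samples 1 and 2 were above every CT sample and mutant sample 3 was within the CT range. The means of 6.88 ± 1.32 (SD, n = 4) and 9.69 ± 3.03 (SD, n = 3) gave a log2 fold change of 0.43 (interval -0.06 to 0.93, adjusted p = 0.257, limma-trend). Ier2 (ENSMUSG00000053560, chromosome 8, 84661331 to 84662852, minus strand), a small nuclear protein of the early response, was at 3.75, 3.06, 2.59 and 2.85 in CT and 4.94, 3.70 and 1.91 in cMU samples, with 80 to 269 reads. Its log2 fold change was 0.11 (interval -0.46 to 0.67, adjusted p = 0.830, limma-trend).

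Of the 9 tested genes, 8 had a positive log2 fold change, a direction that held for 60.1% of all tested genes, and with quantile normalization 6 of 9 and 45.7% did. Their median log2 fold change was 0.17, beside 0.048 over all tested genes. The groups overlapped in each of the 9, whereas they did not overlap in 21.1% of all tested genes. In limma-trend, edgeR and DESeq2, 0 of 9 passed the threshold. Of all tested genes, 363 of 13866 passed in limma-trend and 1709 of 13861 with DESeq2. In edgeR 1344 passed with the likelihood ratio test and 400 with the quasi-likelihood test, of 13866. In limma-trend the widest interval was that of Egr1, which reached 1.25, and the narrowest that of Jun. A rise of Jun by more than 0.47 on the log2 scale lay outside its 95% interval.

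**Figure D2:**
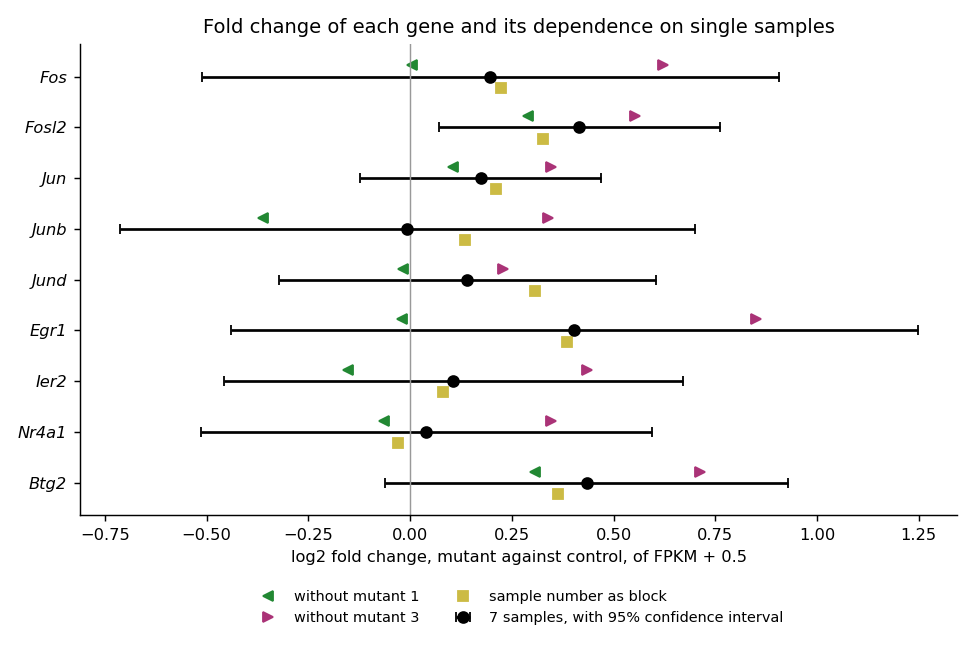
Log2 fold change of FPKM + 0.5, cMU against CT (x axis), of the 9 tested genes (y axis) with 95% confidence intervals from limma-trend over 7 samples (black), without mutant sample 1 (green), without mutant sample 3 (purple) and with the sample number as a block (yellow). Without mutant sample 3 all 9 values are positive, from 0.23 to 0.85, and without mutant sample 1 they run from -0.36 to 0.31.

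The size of these values, and for 6 genes their sign, depended on single samples. The log2 fold changes of Fosl2, Jun and Btg2 stayed positive whichever sample was left out. Without mutant sample 3, all 9 log2 fold changes were positive, with 0.85 for Egr1, 0.71 for Btg2, 0.62 for Fos, 0.55 for Fosl2 and 0.23 for Jund at the low end. None passed the threshold, with a lowest adjusted p of 0.100 for Btg2 (limma-trend). Without mutant sample 1, only 4 of 9 were positive, and the median fell from 0.17 to -0.02.

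Relative to the CT mean, the 9 genes averaged -0.21 to 0.18 on the log2 scale in the CT samples. They averaged 0.61 in mutant sample 1, 0.37 in mutant sample 2 and -0.35 in mutant sample 3. The median of all tested genes in these mutant samples was 0.085, -0.0035 and 0.051. FPKM is scaled to library size, which does not by itself set this median to 0. The median log2 fold change of all tested genes was 0.048 on this scale and -0.0012 with median of ratios scaling. Mutant sample 3 was the lowest mutant sample for all 10 genes, which held for 25.2% of all tested genes, and the lowest of all 7 samples for 7 of the 10 (9.89% of all tested genes). Mutant sample 1 or 2 was the highest of the 7 for 9 of the 10 genes, beside 40.4% of all tested genes. Among the controls, control sample 3 was the lowest for 6 of 10 genes (18.3% of all tested genes).

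**Figure D3:**
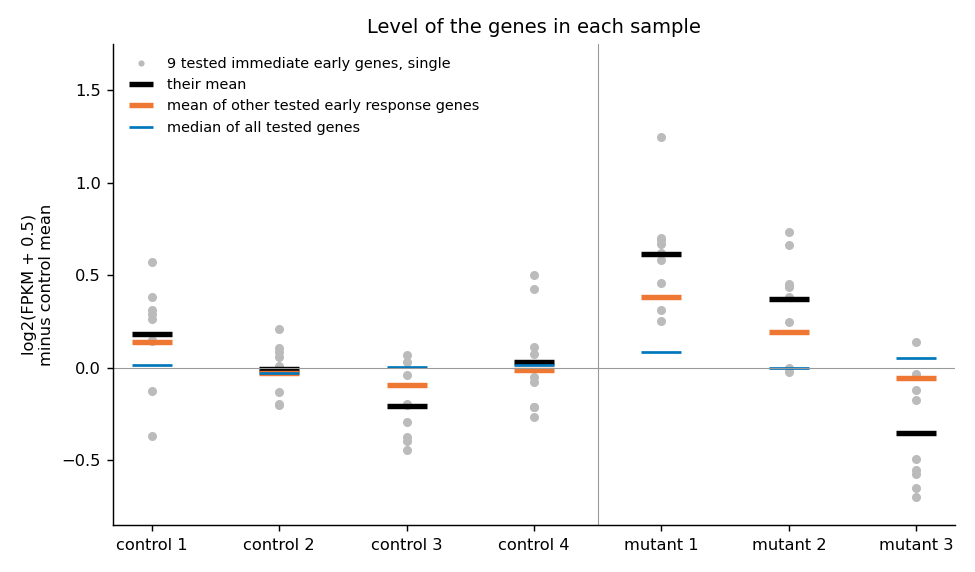
Level in each sample (x axis) relative to the CT mean, as log2(FPKM + 0.5) (y axis), of the 9 tested immediate early genes (grey points), their mean (black), the mean of 40 other early response genes (orange) and the median of all tested genes (blue). The black mark is at 0.61 and 0.37 in mutant samples 1 and 2 and at -0.35 in mutant sample 3, while the CT marks stay between -0.21 and 0.18.

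Samples are numbered within each genotype, and the labels do not say what a number means. Deviations of same-numbered samples correlated at 0.168, 0.409 and 0.270 over all genes, so these samples were also compared in pairs. Control sample 4 and mutant sample 1 reached 0.205, above pair 1, so the pairing is an assumption drawn from these same data. In pair 1 the mutant sample was above the control sample for 9 of 10 genes, all but Nr4a1, and in pair 2 for 10 of 10. In pair 3 it was above for Fosl2 and Btg2 only. Over all tested genes the mutant sample was the higher in 61.0%, 53.5% and 60.6% of genes in pairs 1, 2 and 3. Jund had the largest ratio of pair 1 at 1.82, Fosb that of pair 2 at 1.82, and Junb the smallest of pair 3 at 0.740.

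The 9 genes also differed more between mice of one genotype than most genes did. The SD within groups on the log2 scale had a median of 0.408 over the 9 genes and of 0.134 over all tested genes. Egr1 had 0.636, above 99.1% of tested genes, Fos 0.534 and Junb 0.522. Fosl2 and Jun were the steadiest, with 0.220 and 0.208. Among genes whose mean FPKM was within 1.5-fold of their own, 7 of the 9 lay above the 90th percentile of SD, Jun lay at the 88.2nd and Fosl2 at the 68.0th. The spread was larger in cMU than in CT samples for 8 of the 9 genes, all but Jund, and for 58.2% of all tested genes. Such counts over genes, here and above, come from the same 7 mice and are not independent observations.

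**Figure D4:**
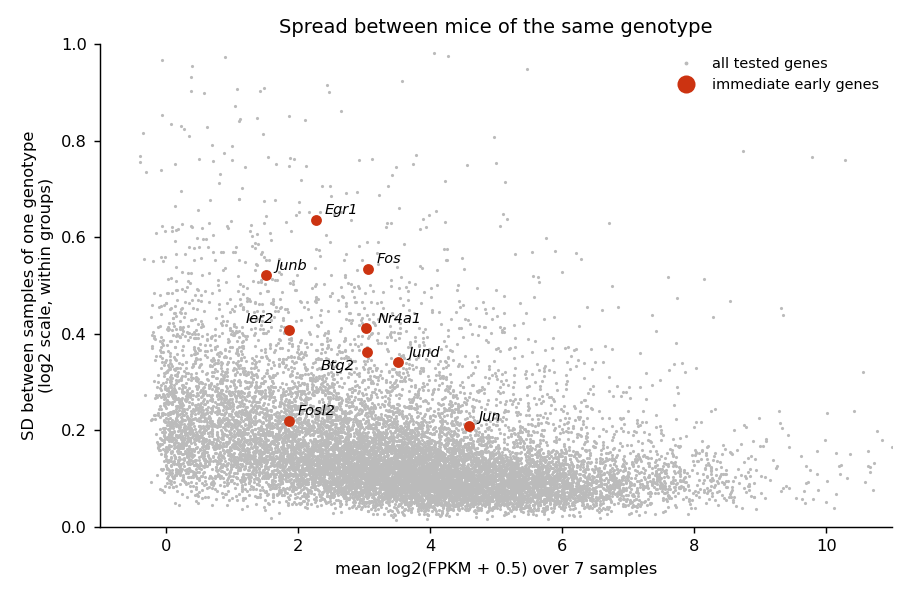
SD between samples of one genotype (y axis, log2 scale, within groups) against the mean log2(FPKM + 0.5) over 7 samples (x axis) for tested genes (grey; 49 lie outside the axes) and the 9 tested immediate early genes (red). Egr1 is highest of the red points at 0.636 and Jun lowest at 0.208.

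Other values also differed among mutant samples 1 to 3, in differing orders, and their part in the levels of the immediate early genes was not tested. All 5 meningeal fibroblast markers (Col1a1, Col1a2, Dcn, Lum and Col3a1) were detected in every sample, with sums of 595 to 1153 in CT samples and 1901, 1021 and 1013 in mutant samples 1, 2 and 3. The 5 endothelial markers summed to 79.6 to 92.3 in CT and to 114, 104 and 103 in cMU samples, with none at 0. The 6 microglia markers summed to 179 to 206 in CT and to 204, 223 and 241 in cMU samples, and the 5 astrocyte markers to 2088 to 2441 and to 2633, 3111 and 3140, both sums highest in mutant sample 3. Gfap made up most of the astrocyte sum. Gfap and Aqp4 were highest of the mutants in mutant sample 3, Slc1a3 and Aldh1l1 in mutant sample 2 and Gja1 in mutant sample 1. Of the microglia markers, Tmem119 was highest of the mutants in mutant sample 1, Aif1 in mutant sample 2 and the others in mutant sample 3. Of the skeletal muscle markers, which were high in mutant sample 2, Myh4 was at 0 in control samples 2 and 4 and in mutant samples 1 and 3. Smooth muscle markers summed to 15.0 to 32.5 in CT samples and to 31.8, 22.4 and 19.6 in mutant samples 1, 2 and 3. Neuron and retina markers (Rbfox3, Snap25 and Crx) ranged from 7.57 to 10.6 in CT samples and were at 9.08, 6.99 and 15.6 in mutant samples 1, 2 and 3. The 3 markers of OL progenitors summed to 85.3 to 117 in CT and 93.2 to 106 in cMU samples. Among them Cspg4 was lower in cMU (7.78 to 8.36 FPKM) than in CT nerves (9.70 to 13.03 FPKM). It passed the threshold (log2 fold change -0.49, adjusted p = 0.0474, limma-trend). Pdgfra (-0.14, adjusted p = 0.537, limma-trend) and Ptprz1 (0.076, adjusted p = 0.736, limma-trend) did not. In the other marker lists Aldh1l1 and Gja1 passed as higher, and Mag and Cnp as lower, in cMU nerves (limma-trend). The 8 heat shock genes summed to 1043 to 1155 in CT and 1047 to 1161 in cMU samples, sums made up mostly of Hspa8 and Hsp90aa1. In limma-trend 0 of 8 passed the threshold, beside 2.62% of all tested genes. At an unadjusted p under 0.05 there was 1 of 8, beside 24.4% of all tested genes (limma-trend). Bag3, a co-chaperone, was at 10.2, 9.78, 8.93 and 12.3 FPKM in CT and 18.4, 13.5 and 12.6 in cMU samples, and passed with the block (adjusted p = 0.028, limma-trend with block). The heat shock genes Hspa1a and Hspb1 were at 1.06 to 2.15 and 23.3 to 29.9 in CT samples, at 2.999 and 40.35 in mutant sample 1, at 1.504 and 30.1 in mutant sample 2 and at 1.33 and 23.1 in mutant sample 3. These 3, picked after their values were seen, were highest in mutant sample 1 and lowest of the mutants in mutant sample 3. By contrast, Hsph1, Hspa8 and Hsp90aa1 were highest of the mutants in mutant sample 3. Hspa8 was at 658, 651 and 737 and Hsp90aa1 at 300, 336 and 359 in mutant samples 1, 2 and 3. Hspa1b was lowest of the mutants in mutant sample 2, and Dnajb1 in mutant sample 3.

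The closest patterns among the 12829 other tested genes with a mean of at least 1 FPKM were sought by the root mean square difference between a gene's deviations from its own mean and the mean deviations of the 9 immediate early genes, over 7 samples on the log2 scale. That mean profile had a root mean square of 0.306. Zfp36 was nearest at 0.078, followed by Zfp93 at 0.111, Ppp1r15a at 0.115, Folr2 at 0.115, Emx2 at 0.121, Slc19a2 at 0.130, Socs3 at 0.132 and Msc at 0.133. Zfp36, which encodes the mRNA-decay protein tristetraprolin, was at 10.7, 8.16, 7.22 and 9.29 in CT and 14.4, 11.4 and 7.52 in cMU samples. Ppp1r15a, a regulator of eIF2 phosphorylation, was at 8.83, 7.30, 6.84 and 8.37 and at 11.3, 9.12 and 7.04. Of the immediate early genes themselves, Ier2 was nearest to the mean profile at 0.093 and Jund farthest at 0.356.

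Zfp36 and Socs3 also belong to 45 other genes known to respond early, of which 40 could be tested. None of the 40 passed the threshold in limma-trend, beside 2.62% of all tested genes, or in the quasi-likelihood test of edgeR. In limma-trend 12 had an unadjusted p under 0.05 (30.0%, beside 24.4% of all tested genes), and 30 had a positive log2 fold change (75.0%, beside 60.1%). The median over the 40 was 0.15. The groups did not overlap in 6 of the 40, 4 higher and 2 lower in cMU, which is 15.0% beside 21.1% of all tested genes. The most abundant were Rhob, a small GTPase (log2 fold change -0.22, adjusted p = 0.119, limma-trend), Ctgf, a matricellular protein (0.76, adjusted p = 0.068), Zfp36l1, an mRNA-decay protein (0.43, adjusted p = 0.256), and Plk3, a stress-responsive kinase (-0.32, adjusted p = 0.0656). Their mean over the samples was 0.38, 0.19 and -0.058 in mutant samples 1, 2 and 3, beside -0.095 to 0.14 in CT samples. Mutant sample 3 was the lowest mutant sample for 26 of 40 of them (25.2% of all tested genes), and the lowest of all 7 for 7 of 40 (9.89%). Control sample 3 was the lowest of all 7 more often, for 13 of 40 (10.9% of all tested genes).

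With the sample number as a block, 8.36% of all tested genes passed. The immediate early genes numbered 0 of 9, with adjusted p of 0.111 for Btg2, 0.151 for Fosl2 and 0.186 for Egr1 (limma-trend with block). Of the other early response genes 5 of 40 passed, all higher in cMU and named here after their values were seen. They were Klf4, a zinc finger factor, at 16.3, 13.3, 14.3 and 16.0 FPKM in CT and 37.6, 24.4 and 17.9 in cMU samples (adjusted p = 0.033), Ctgf (adjusted p = 0.029), Zfp36l1 (adjusted p = 0.033), Dusp1, a phosphatase of MAP kinases (adjusted p = 0.049), and the circadian repressor Bhlhe40 (adjusted p = 0.047).

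The routes that lead to immediate early genes were then followed at the RNA level, which says nothing about phosphorylation, by which most of them work. In limma-trend 0 of the 53 tested genes in 5 lists passed, beside 2.62% of all tested genes. Among serum response factor, its cofactors and kinases of that route, 4 of 15 had an unadjusted p under 0.05 (26.7%, beside 24.4% of all tested genes) and the median log2 fold change was 0.16. The most abundant were the kinases Mapk3, Map2k1 and Map2k2, with log2 fold changes of -0.041, -0.026 and -0.061, and the transcription factor Mef2a, with 0.29 (adjusted p = 0.114, limma-trend). In this list Elk3, a ternary complex factor, passed with the block (0.45, adjusted p = 0.030). Among CREB and its coactivators 2 of 8 had an unadjusted p under 0.05 (25.0%), with a median of 0.18 and values of 0.17 for Ep300, 0.11 for Creb1, 0.30 for Atf1 and 0.20 for Crtc3. Atf1, a relative of CREB, passed with the block (0.34, adjusted p = 0.0496, limma-trend with block). Among JNK and p38 kinases and their activators it was 1 of 8 (12.5%), with a median of 0.074 and 0.070 for Map2k4, 0.067 for Map2k7, 0.050 for Mapk9 and 0.13 for Mapk14.

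None of the partners of the proteins passed the threshold either (limma-trend). Of 14 other leucine zipper proteins that pair with Fos or Jun proteins, 12 were tested and 2 had an unadjusted p under 0.05 (16.7%), and the most abundant, Atf7, Atf4, Mafg and Atf2, had log2 fold changes of 0.11, 0.092, 0.064 and 0.14. Of 10 co-repressors, BTG and TOB proteins, deadenylases and Nr4a relatives, 3 had an unadjusted p under 0.05 (30.0%), again beside 24.4% of all tested genes. Nab1, a co-repressor of Egr proteins, was at -0.070, the deadenylases Cnot8 and Cnot7 at 0.13 and 0.042, and the Btg2 relative Tob1 at 0.32. Btg3, another Btg2 relative, passed with the block only (log2 fold change 1.14, adjusted p = 0.027, against 0.95 and 0.091 without it). It was at 6.56, 5.39, 11.4 and 13.3 FPKM in CT samples and 18.3, 16.9 and 15.9 in cMU samples. Its mutant samples lay close together, whereas control samples 1 and 2 were well below control samples 3 and 4.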

How the data were processed

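RNA-seq of P14 optic nerves from 4 control and 3 mutant mice was analysed. Per the labels, polyadenylated RNA was prepared with a stranded kit, and the submitters' processing notes name STAR 2.5.1b, RSEM 1.2.22, edgeR and GRCm38. The authors deposited, for 22880 genes, FPKM values and normalized counts, a signal made from estimated counts of RSEM divided by a factor for each sample. All 14 columns of single samples were used. The authors' own fold changes, p-values and false discovery rates were not used.

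FPKM values were tested as log2(FPKM + 0.5) with limma-trend (limma 3.58.1, R 4.3.3), genotype as the only term, for the 13866 genes that reached 0.5 FPKM in 3 samples or more, Benjamini-Hochberg adjustment over all of them and a threshold of 0.05. Dividing normalized counts by the value of 1 read gave totals of 27456733 to 43460862 reads. Of the low values 70.5% to 75.6% were whole within 0.01 read, and the others were the hundredths that RSEM gives. These reads, rounded, entered edgeR 4.0.16 and DESeq2 1.42.0 as alternatives, beside other pseudocounts, filters and scalings, a block and leaving out each sample. Limma-trend without a block, the likelihood ratio and quasi-likelihood tests of edgeR and DESeq2 were tried on simulated reads. These had the same dispersion for every gene and no pairing, and their spread was not set to that of the immediate early genes. The block fit and the other scalings were not tried in this way. Replicates differed by more than sampling noise (median chi-square per gene 2.15 to 6.38), and p-values measure only the spread between these mice.

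Same-numbered samples deviated together, with correlations over genes of 0.168, 0.409 and 0.270 in pairs 1 to 3. Samples of unlike number had -0.353 to 0.205, the highest for control sample 4 and mutant sample 1. Same-numbered samples were taken as pairs, although the labels do not say what a number means. The pair comparisons and the block fit rest on this assumption.

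The members and gene lists were chosen with earlier results of these data known. Genes named are all members, Fasn, at most 4 genes per list discussed (those past the threshold, otherwise the most abundant), and the 8 genes nearest to the members' mean profile. Genes that passed only under an alternative, and single marker and heat shock genes, were named beyond this after their values were seen. Promoters are from RefSeq, and those of Ier2 and Egr1 are not used here. Some genes are not reported here and were left out of the lists.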

Additional observations from a re-analysis of the deposited data

Results flagged for a closer look

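In 75 sets of 4 control samples, covering the genes and summed marker lists given above, the highest or lowest sample was compared with the others by Dixon's ratio of gap to range and its 95% critical value. None of the 10 immediate early genes was beyond it. Chance alone flags about 1 in 20 such sets, and 6 of the 75 were beyond it. The blood markers summed to 8345 FPKM in control sample 2 (ratio 0.859), and the skeletal muscle markers to 0.727 in control sample 1 (ratio 0.860). Mafg was lowest in control sample 1 at 28.3 FPKM (0.901), Mapk9 highest there at 22.1 (0.832), Mapk14 lowest in control sample 2 at 17.7 (0.872) and Cnot8 highest in control sample 4 at 25.2 (0.872). The 3 mutant samples are too few for this comparison.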

How the results depend on the processing

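No immediate early gene passed the threshold in any of the 18 alternatives (lowest adjusted p 0.0654, Fosl2 with DESeq2), and 140 of the 162 recomputed fold changes kept their sign. The 22 others belonged to 6 genes, each with a confidence interval that spans 0. Junb, at -0.0066, was 0.0046 with a pseudocount of 1, 0.040 and 0.049 with the likelihood ratio and quasi-likelihood tests of edgeR, 0.041 with DESeq2 and 0.13 with the replicate block. Nr4a1 was -0.054 with quantile normalization, -0.0099 with median of ratios scaling, -0.037 with normalized counts and -0.030 with the block, and Ier2 was -0.015 with quantile normalization. With each sample left out in turn, fold changes ran from -0.034 to 0.62 for Fos, -0.36 to 0.34 for Junb, -0.017 to 0.31 for Jund, -0.020 to 0.85 for Egr1, -0.15 to 0.43 for Ier2 and -0.16 to 0.35 for Nr4a1. The count of members higher in cMU was then 4 to 9 and their median -0.017 to 0.43, the lowest without mutant sample 1 and the highest without mutant sample 3.

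The number of genes past the threshold was 95 without a filter on low values, 1344 and 1709 with the likelihood ratio test of edgeR and with DESeq2, and 1159 with the replicate block, against 363. With a sample left out it was 6 to 907, with 6 without control sample 3 or mutant sample 3, 15 without control sample 2, 60 and 117 without control samples 1 and 4, 186 without mutant sample 1 and 907 without mutant sample 2. Other early response genes past it numbered 1 with quantile normalization (Plk3), 5 with the likelihood ratio test (Ctgf, Homer1, Klf4, Nfkbia and Plk3), 8 with DESeq2 and 5 with the block, and 0 to 2 with a sample left out (Plk3 and Rhob without mutant sample 2). The causes of these differences were not tested. In the block fit control sample 4, which has no partner, adds nothing to the fold changes. Depth limits Fosb above all, with 7 to 60 reads per sample.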
